A study of Homo sapiens with 16 samples.

Results

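The genes described here are 10 genes of the mitochondrial genome, MT-ND1, MT-ND2, MT-ND4, MT-ND5, MT-CYB, MT-CO1, MT-CO2, MT-CO3, MT-ATP6 and MT-ATP8, picked by gene symbol. All 10 are listed in both tables of the series, among 8657 genes in the lentiCTRL table and 7433 genes in the lentiDDX3X and lentiDDX3Y table. The other 3 mitochondrial mRNAs, MT-ND3, MT-ND4L and MT-ND6, are also listed in both tables and are given beside them where they share a transcript or a complex. Every other gene of a table is nuclear and serves as the comparison, 8644 genes in the first table and 7420 in the second.

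The cells were HCT-116, a human colorectal carcinoma line, in which endogenous DDX3X carried a mini auxin-inducible degron (mAID) and the plant F-box protein OsTIR1 was expressed from a CMV promoter. All groups shared both of these alleles and were made from 1 such line. Control cells (lentiCTRL) received DMSO or the auxin indole-3-acetic acid (IAA) at 500 µM for 48 h, which triggers loss of the tagged DDX3X. Complemented cells carried a lentiviral FLAG-tagged DDX3X (lentiDDX3X) or DDX3Y (lentiDDX3Y), both with IAA. Cells of every group were treated with cycloheximide at 100 µg/ml just before harvest. Each of the 4 conditions had 2 replicates, with ribosome profiling (ribo) and RNA-seq (RNA) from each, 16 libraries in all. Of 10 markers of colorectal epithelium, 7 are listed in each table, among them EPCAM, KRT8 and CDX2, and LGALS4, CDX1 and VIL1 are not. Of 8 markers of other cells, COL1A1 is listed in the lentiCTRL table and none in the other.

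The value used for each gene is the base mean, a mean of normalized read counts over coding sequence that the authors deposited as 1 number per gene and assay in each table. It holds no value per library and per condition, so no spread between replicates can be given, no test was run, and nothing below compares DMSO with IAA or DDX3X with DDX3Y. Ribo base means sum to 604809 in the lentiCTRL table and 734724 in the other, and the RNA base means to 1.56e+07 and 1.60e+07. Every member lies well above the lowest ribo base mean listed, which is 10 and 20 after rounding, so none of them entered a table at its limit. Differences between genes below are descriptions of these pooled values.

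Human mitochondrial DNA encodes the hydrophobic core subunits of the respiratory chain and of ATP synthase, while the remaining subunits come from the nucleus. Its genes are transcribed as long polycistronic RNAs from which tRNAs are cut out, leaving mRNAs with little or no 5' leader and no cap. Ribosomes of their own, inside the organelle, translate these mRNAs, so that the scanning of a leader by cytosolic initiation factors and helicases such as DDX3X has no counterpart there. The ND proteins belong to complex I (NADH dehydrogenase), CYB to complex III (cytochrome b), CO1 to CO3 to complex IV (cytochrome c oxidase), and ATP6 and ATP8 to complex V (ATP synthase).

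The starts of 8 coding sequences are shown because the absence of a leader is what sets these mRNAs apart. The reference is hg38 with the GENCODE v44 annotation, all 10 genes lie on the plus strand of chromosome M, and each line gives 1 gene's first 30 bases from 5' to 3' with the annotated start codon in capitals.
MT-ND1: ATAcccatggccaacctcctactcctcatt
MT-ND2: ATTaatcccctggcccaacccgtcatctac
MT-CO1: ATGttcgccgaccgttgactattctctaca
MT-CO2: ATGgcacatgcagcgcaagtaggtctacaa
MT-ATP8: ATGccccaactaaatactaccgtatggccc
MT-ATP6: ATGaacgaaaatctgttcgcttcattcatt
MT-CO3: ATGacccaccaatcacatgcctatcatata
MT-ND4: ATGctaaaactaatcgtcccaacaattata

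In all 10 genes the coding annotation begins at the first base of the gene, with no 5' UTR annotated. The start codon is ATG in 7 of them and another codon in 3, among them ATA in MT-ND1 and ATT in MT-ND2. On the same strand, 8 of the 10 begin within 5 nt of the gene before them or overlap it, and the exceptions are MT-CO1, 324 nt after MT-TW, and MT-CYB, 598 nt after MT-ND5. The coding length is no multiple of 3 in 5 genes (MT-ND1, MT-ND2, MT-CO3, MT-ND4 and MT-CYB), whose stop codons are completed by polyadenylation. MT-ND1, the first of the genes in genome order, occupies chromosome M from 3307 to 4262. The coding sequence of MT-ATP6 (8527 to 9204) starts inside that of MT-ATP8 (8366 to 8569), and 43 nt are shared, which is 21.1% of the MT-ATP8 coding sequence and 6.34% of that of MT-ATP6. MT-ND4L and MT-ND4 share 4 nt in the same way. Coding GC content of the 10 genes runs from 39.7% (MT-ATP8) to 47.7% (MT-ND1), with a median of 45.6% against a nuclear median of 52.5%.

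The mitochondrial mRNAs were among the most abundant RNAs listed in either table. Base means not divided by length come first. The RNA base mean of MT-CO1, the catalytic subunit of complex IV, was 278674 in the lentiCTRL table and 337446 in the lentiDDX3X and lentiDDX3Y table, the highest of all genes in both. MT-CO3 (195837 and 215108) and MT-CYB (163344 and 232619) took the next places, and these 3 members exceeded the highest nuclear RNA base mean, that of EEF1A1, the elongation factor that brings tRNA to the cytosolic ribosome (133089 and 134864). MT-ND2 (12520 and 13903) and MT-ATP8 (5916 and 6489) were the lowest of the 10, at ranks 122 and 350 among all genes of the lentiCTRL table. Together the 10 genes made up 6.24% of the summed RNA base means in the lentiCTRL table and 7.40% in the other. In bulk lysates, more mitochondria per cell and more RNA per mitochondrion cannot be told apart.

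The order by footprints was another. Before division by length, MT-ND5, MT-CYB and MT-CO1 had the 3 highest ribo base means of all genes in both tables. MT-ND5, a proton-pumping subunit of complex I, stood at 5395 and 6010, MT-CYB at 4983 and 5112 and MT-CO1 at 4780 and 4079. MT-CO3 was at ranks 9 and 20 by ribo base mean. The highest nuclear ribo base mean was that of S100A6, a calcium-binding protein, with 3397 and 3572. MT-ND1 had the fewest footprints of the 10, 457 and 406, although its RNA base mean of 43996 and 43731 was above that of MT-ND2. The share of summed ribo base means in the 10 genes was 3.65% and 3.03%, lower than their share of RNA in both tables.

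**Figure D1:**
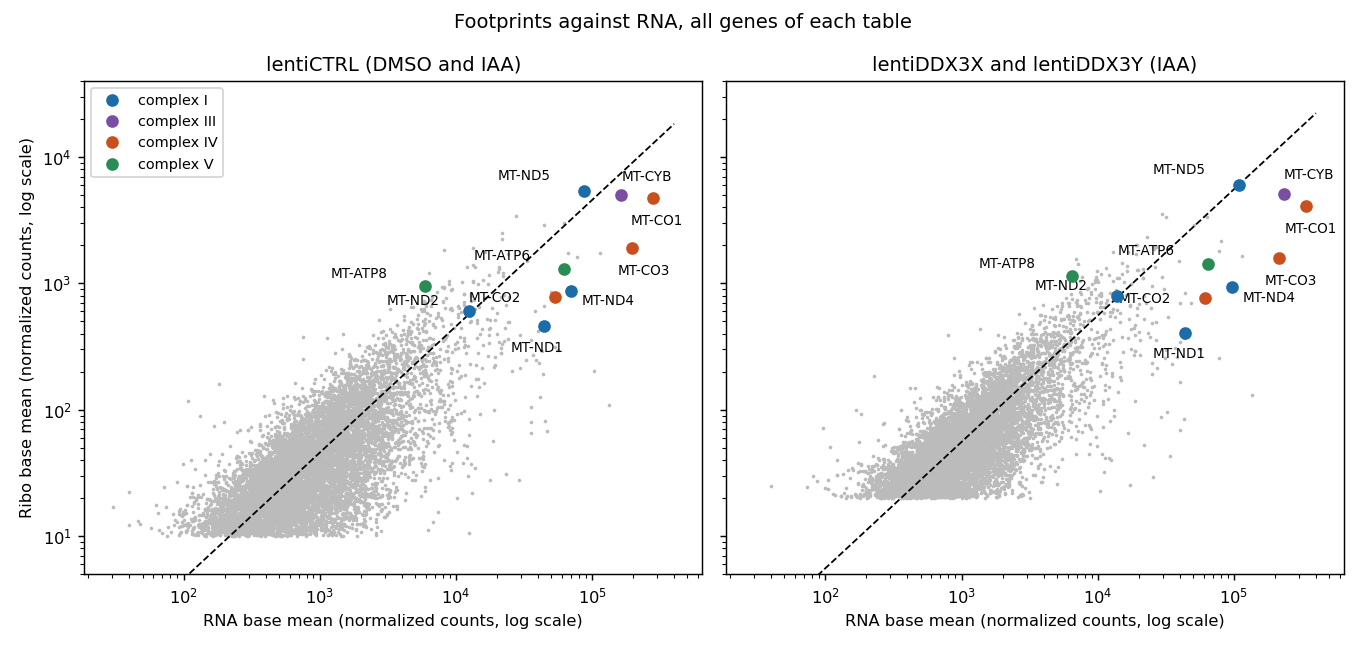
Ribo base mean against RNA base mean of every gene, both on log axes, for the lentiCTRL table (left) and the lentiDDX3X and lentiDDX3Y table (right); grey points are nuclear genes, coloured points the 10 mitochondrial genes by complex, and the dashed line marks the median nuclear ratio of ribo to RNA. MT-ATP8 lies above the line, MT-ND2 and MT-ND5 on or near it and the other 7 below it, and MT-ND5, MT-CYB and MT-CO1 are the highest points of each panel.

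Base means grow with gene length, so levels of different genes were compared after division by coding length and are given per 1000 nt. On this scale RNA in the lentiCTRL table ran from 12016 for MT-ND2 to 249793 for MT-CO3, a range of 20.8-fold among mRNAs that come from 1 precursor. MT-CO1 (180723) and MT-CYB (143159) followed MT-CO3, and these 3 lay above every nuclear gene, the highest being MT2A, a metallothionein, at 119942. MT-ATP6 (92036) and MT-CO2 (78790) were next. MT-ND4 (50372), MT-ND5 (48536) and MT-ND1 (46021) were close to one another, with MT-ATP8 (28998) below. The order did not follow position on the genome, as MT-ND1 lay 3.83 times above MT-ND2 beside it and MT-CO3 lay 3.17 times above MT-CO2. In the complemented cells MT-CO3 was again highest at 274373 and MT-ND2 lowest at 13343. The nuclear genome holds near-identical copies of stretches of these genes. No symbol of such a copy is listed in either table, but both hold counts over coding sequence, so this tells nothing of shared reads. How reads shared with such copies were placed is not stated.

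Footprints per 1000 nt covered a narrower range, 9.84-fold in the lentiCTRL table and 13.3-fold in the other. MT-ATP8 was highest (4707 and 5643), followed by MT-CYB (4367 and 4481). On this scale no member led the tables, as 4 nuclear genes in the lentiCTRL table and 3 in the other were above MT-ATP8. S100A6, which was below the top 3 members before division by length, had 12581 and 13231, and MT2A had 12339 and 9402. MT-CO1 (3100 and 2645) and MT-ND5 (2982 and 3322) changed places between the tables, as MT-CO3 (2438 and 2026) and MT-ATP6 (1932 and 2107) did. MT-CO2 had 1149 and 1124. MT-ND4 (636 and 677), MT-ND2 (582 and 768) and MT-ND1 (478 and 425) were the lowest, so that within complex I MT-ND5 exceeded MT-ND1 by 6.23-fold and 7.81-fold. The median member exceeded the median nuclear gene by 89.1-fold and 53.4-fold for footprints and by 108-fold and 111-fold for RNA. The nuclear sets differ, as genes are listed down to a ribo base mean of 10 in the lentiCTRL table and 20 in the other. Footprints per 1000 nt were 24.5 and 38.7 for the median nuclear gene and 2185 and 2066 for the median member.

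Footprints per RNA, the ratio of ribo to RNA base mean, express how many footprints a gene had for its amount of RNA. Values are given as a log2 difference from the median nuclear gene of the same table, where 0 is that median. Most of the 10 mitochondrial genes were below it. In lentiCTRL cells 7 of the 10 lay below the nuclear median, 6 below the lower nuclear quartile (-0.76) and 4 below the 10th nuclear percentile (-1.54). In the lentiDDX3X and lentiDDX3Y table the counts were 8, 7 (lower quartile -0.61) and 7 (10th percentile -1.26). The median of the 10 was -1.27 and -1.75, that is 2.41 and 3.37 times below the median nuclear gene. The lentiCTRL table reaches down to lower ribo base means than the other. Against its nuclear genes with base means above 20 the median of the 10 was -1.42. MT-ND3, MT-ND4L and MT-ND6 are not in these counts and medians, and each of them lay above the median of the 10 in both tables.

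Abundant nuclear RNAs were low on this scale too. The 340 nuclear genes of the lentiCTRL table with an RNA base mean at or above that of MT-ATP8, the lowest member, had a median of -1.03, and 6 of the 10 members lay below it. In the other table the 313 such genes had a median of -0.85 and 7 members lay below it. Against these genes the median member was only -0.24 and -0.90 from their median. They include cytosolic ribosomal protein genes, such as RPL12 at -5.56 and -5.59, whose ratios are uncertain as stated below. How far their median rests on such genes was not tested. The part that abundance takes in the low ratios was not tested. Among the 2862 nuclear genes with a coding GC content at or below the highest of the 10, the median was -0.15 in the lentiCTRL table.

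MT-CO3 and MT-ND1 had the fewest footprints for their RNA. MT-CO3 stood at -2.23 in the lentiCTRL table and -2.91 in the other, with 3.48% and 0.50% of nuclear genes below it. MT-ND1 stood at -2.14 and -2.58. MT-ND4, which like MT-ND1 encodes a membrane subunit of complex I, was at -1.86 and -2.54. The catalytic subunits of complex IV, MT-CO2 (-1.65 and -2.16) and MT-CO1 (-1.42 and -2.20), came next. These 5 genes were in the same part of the range in both tables, all below the lower nuclear quartile.

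MT-ATP6, the membrane subunit through which protons pass in ATP synthase, was at -1.12 and -1.32, and MT-CYB at -0.58 and -1.34. In the lentiCTRL table MT-CYB was the only member between the lower nuclear quartile and the median. MT-ND2 was close to the median nuclear gene in both tables, at 0.08 and 0.05. MT-ND5 was at 0.43 and -0.01, above 67.5% and 49.6% of nuclear genes. Hence MT-ND5 had 5.91 and 5.95 times as many footprints per RNA as MT-ND1, and 4.87 and 5.76 times as many as MT-ND4, although the 3 RNAs were at like levels per length in the lentiCTRL table.

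MT-ATP8 was the single member above the upper nuclear quartile. Its RNA base mean was 5916 and its ribo base mean 960 in the lentiCTRL table, and 6489 and 1151 in the other. Its footprints per RNA were 1.83 and 1.67 on the log2 scale, 3.55-fold and 3.19-fold over the median nuclear gene, and above 98.7% and 98.9% of nuclear genes. Short coding sequences were high as a group. The 498 nuclear genes with up to 400 nt had a median of 1.16 in the lentiCTRL table, and 82.5% of them were below MT-ATP8, whose coding sequence has 204 nt.

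MT-ATP8 and MT-ATP6 are known to lie on 1 mRNA, and the counts did not place them at one level. RNA per 1000 nt was 3.17 and 2.97 times higher for MT-ATP6, whereas footprints per 1000 nt were 2.44 and 2.68 times higher for MT-ATP8. How reads in the shared 43 nt, and reads that cross from one frame to the other, were assigned is not given in the sources used here, and its part in these ratios was not tested. MT-ND4L and MT-ND4, the other pair on a shared mRNA, behaved alike for RNA, with MT-ND4 higher per 1000 nt by 3.62-fold and 3.44-fold. For footprints MT-ND4L was higher by 1.22-fold and 1.35-fold. MT-ND4L itself was at 0.29 and -0.32 in footprints per RNA, MT-ND3 at 1.27 and 0.65 and MT-ND6, the only one read from the opposite strand, at -0.73 and -0.51.

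**Figure D2:**
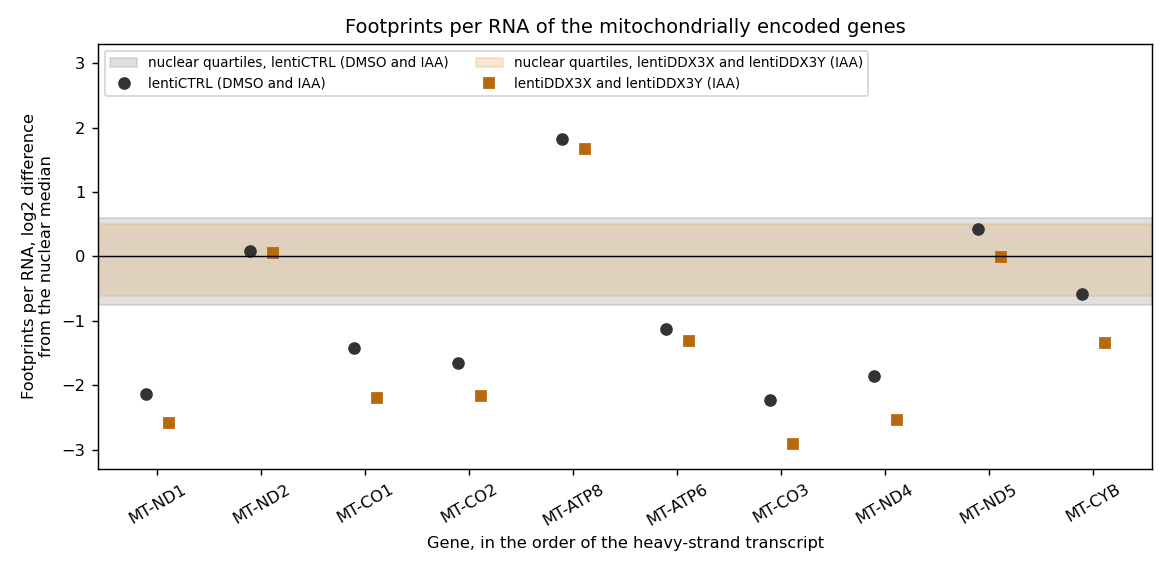
Footprints per RNA of the 10 mitochondrial genes as the log2 difference from the nuclear median of the same table, in genome order; circles are the lentiCTRL table, squares the lentiDDX3X and lentiDDX3Y table, and the bands span the lower to the upper quartile of nuclear genes in each. MT-ATP8 lies above both bands (1.83 and 1.67), MT-ND2 and MT-ND5 lie inside them, and MT-CO3 is lowest (-2.23 and -2.91).

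Each complex holds nuclear subunits that are built into the same enzyme as the mitochondrial ones, and these give a further comparison beside all nuclear genes. The nuclear subunits of complexes I to V, 78 genes in the lentiCTRL table and 76 in the other, had many footprints for their RNA, with medians of 1.02 and 0.77. Only 3 and 5 of them were below the nuclear median. The mitochondrial genes were thus 2.29 and 2.52 below the median of their nuclear partners on the log2 scale, taking medians of both.

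For complex IV the 2 sets did not overlap. MT-CO1, MT-CO2 and MT-CO3 ran from -2.23 to -1.42 in footprints per RNA in the lentiCTRL table, and the 11 nuclear subunits from 0.31 (COX5A) to 2.87 (COX8A). Their RNA per 1000 nt was 39.5 times that of the nuclear subunits at the median, and their footprints 3.69 times. In the other table the factors were 48.1 and 2.68. A wide excess of RNA therefore came with a small excess of footprints. COX8A (1216 per 1000 nt), a small nuclear subunit, had more footprints than MT-CO2 (1149), and COX7C had the most RNA of the nuclear subunits at 12970 per 1000 nt.

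For complex I the RNA factor of the 4 members was 25.4 and 27.1 and the footprint factor 2.97 and 3.23. These factors leave out MT-ND3, MT-ND4L and MT-ND6. In the lentiCTRL table their RNA per 1000 nt was 10709, 13905.5 and 7144, lower than that of MT-ND1, MT-ND4 and MT-ND5. Their footprints per 1000 nt were 1180.5, 778 and 198. A factor over all mitochondrial subunits of complex I was not computed. RNA of all 4 mitochondrial members exceeded every one of the 37 nuclear subunits, the highest of which was NDUFB9 at 6262 per 1000 nt. In footprints NDUFA1, with 827 per 1000 nt, exceeded MT-ND1, MT-ND2 and MT-ND4 in the lentiCTRL table. Of the 4 members only MT-ND5 exceeded all nuclear subunits there, and MT-ND3, which is not a member, exceeded them too. The nuclear subunits ranged in footprints per RNA from -0.02 (NDUFB1) to 2.34 (NDUFA7), and of the members MT-ND2 (0.08) and MT-ND5 (0.43) were within that range.

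MT-CYB, the single mitochondrial member of complex III, had 41.0 and 67.2 times the RNA of its nuclear partners per 1000 nt and 13.3 and 10.8 times the footprints. UQCRB, the nuclear subunit with the most RNA, had 10509 per 1000 nt. In lentiCTRL cells 1 of the 9 nuclear subunits, UQCRH at -1.68, had fewer footprints for its RNA than MT-CYB. UQCRH had a ribo base mean of only 27.1 and is not listed in the other table. The lowest of the 8 nuclear subunits there, UQCRFS1 at -0.30, was above MT-CYB (-1.34). For complex V the RNA factor was 11.7 and 10.7 and the footprint factor 9.08 and 10.1, the 2 nearest to each other of any complex. The pair was split, with MT-ATP8 (1.83) in the range of the nuclear subunits, from -0.39 (ATP5F1E) to 2.44 (ATP5MPL), and MT-ATP6 (-1.12) below it.

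**Figure D3:**
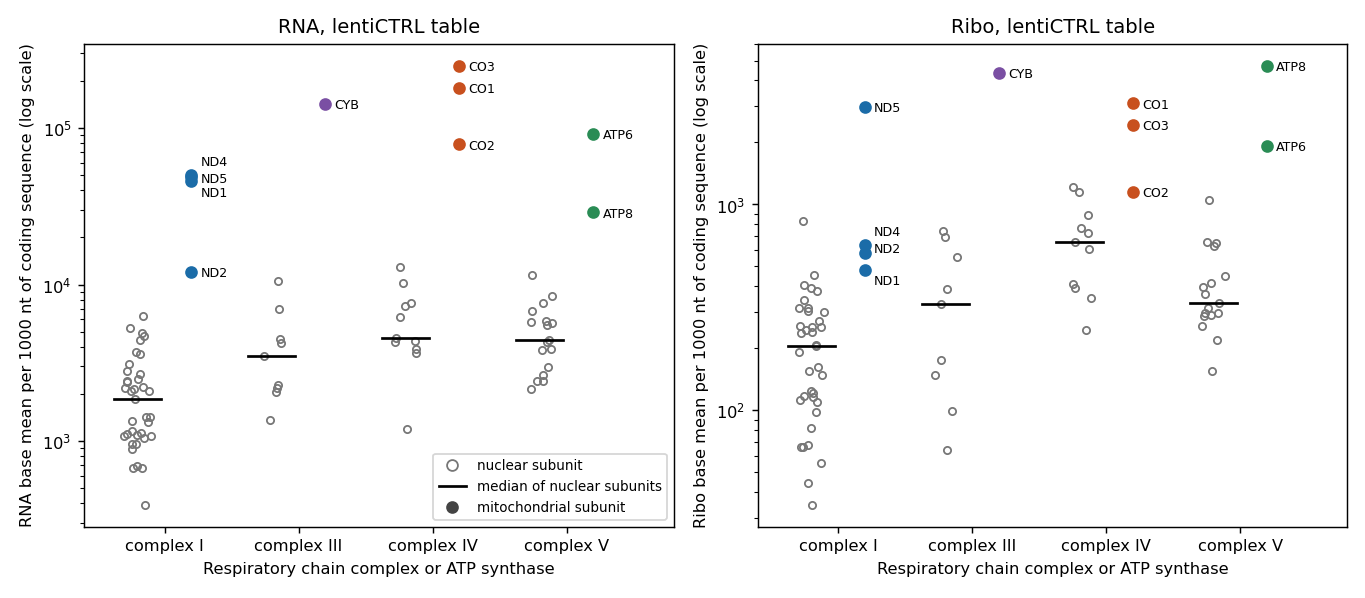
RNA (left) and ribo (right) base mean per 1000 nt of coding sequence on log axes in the lentiCTRL table, for the 4 complexes that mix mitochondrial and nuclear subunits; open circles are nuclear subunits, black bars their medians and filled circles the mitochondrial members. For RNA all members lie above all nuclear subunits of their complex, and for ribo MT-CO2 and 3 of the 4 ND genes lie within the nuclear range.

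Nuclear genes that serve mitochondrial gene expression differed by list in footprints per RNA. The 82 proteins of the mitochondrial ribosome had medians of 0.94 and 0.77, with 74 of 82 above the nuclear median in both tables, from MRPL37 (-0.64) to CHCHD1 (2.56) in the lentiCTRL table. The 11 mitochondrial translation factors had a median of 0.22 there (0.30 over 7 genes in the other table), the lowest being MTIF2 (-1.41), the initiation factor that places the initiator tRNA, and the highest TSFM (1.35), an elongation factor. For the 18 genes of mitochondrial RNA synthesis and processing the median was 0.18 (-0.03 over 16 in the other table), from FASTKD1 (-1.22) to SLIRP, which binds and stabilises mitochondrial mRNAs, at 2.33. POLRMT, the RNA polymerase that transcribes the 10 genes, was second lowest at -0.89. MTIF2 and FASTKD1 were near the limit of the lentiCTRL table, with ribo base means of 13.3 and 11.6 where the lowest listed is 10.0. Neither of them is listed in the other table. The 6 genes of mitochondrial DNA maintenance had a median of -0.63 (-1.04 over 5 in the other table), and POLG, the replicative DNA polymerase, was at -1.26. The median RNA per 1000 nt was 996 for the mitochondrial ribosomal proteins and 458 for the RNA synthesis and processing genes, against 64581 for the 10 members.

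Among the nuclear lists examined, cytosolic ribosomal proteins had the lowest median, -1.84 over 72 genes and -1.93 over 68, below the median of the mitochondrial genes. They share reads with many pseudogene copies, so their ratios are uncertain. The single nuclear genes nearest to the median member, by distance over log2 RNA and ribo base means in both tables, were GAPDH (0.79), FAT1 (0.95), RPL8 (1.20), EEF2 (1.21) and HSP90AB1 (1.49). GAPDH, the glycolytic enzyme, had an RNA base mean of 66878 and a ribo base mean of 1736 in the lentiCTRL table, against 65813 and 1122 for the median member. By the same measure MT-ATP6 (0.41) was the member nearest to that median and MT-ATP8 (5.01) the farthest.

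The last comparison sets the lentiDDX3X and lentiDDX3Y table beside the lentiCTRL table. Because each was normalized on its own, the log2 difference of base means was centred on the 7373 nuclear genes in both tables. The lentiCTRL table covers DMSO and IAA, the conditions differ in virus and treatment, and the tables used here give no value per library against which to test a shift. RNA of the members was nearly level, with a median of 0.06, 8 of 10 above 0 and a range from -0.13 (MT-ND1) to 0.39 (MT-CYB). MT-CYB and MT-ND4 (0.37) were above the upper quartile of nuclear genes (0.16), as was MT-ND5 (0.19).

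Footprints were lower in the complemented table for 9 of the 10. The median was -0.30, where the lower quartile of nuclear genes was -0.19. MT-CO3 (-0.63), MT-CO1 (-0.59) and MT-ND1 (-0.54) were lowest, and 1.59% and 2.08% of nuclear genes were below MT-CO3 and MT-CO1. MT-ND2 (0.04) and MT-ATP8 (-0.10) were within the nuclear quartiles. The 76 nuclear subunits of complexes I to V had a median of -0.25 in footprints, with 65 of 76 below 0, and the 82 mitochondrial ribosomal proteins a median of -0.14 with 61 below 0. Most nuclear genes of the same enzymes were thus below 0 as well. Centred on those nuclear subunits in place of all nuclear genes, the median member was only -0.05 in footprints. Centred on nuclear genes with base means above 100 it was -0.22.

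Footprints per RNA had a median difference of -0.41 for the members, with 9 of 10 below 0, and of -0.12 for the nuclear subunits. MT-CO1 (-0.72), MT-CYB (-0.69), MT-CO3 (-0.62) and MT-ND4 (-0.61) were lowest, with 0.12%, 0.18%, 0.52% and 0.56% of the shared nuclear genes below them. MT-ATP8 (-0.09), MT-ATP6 (-0.13) and MT-ND2 (0.03) differed least. In both tables MT-ATP8 was the highest member and MT-CO3 the lowest.

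**Figure D4:**
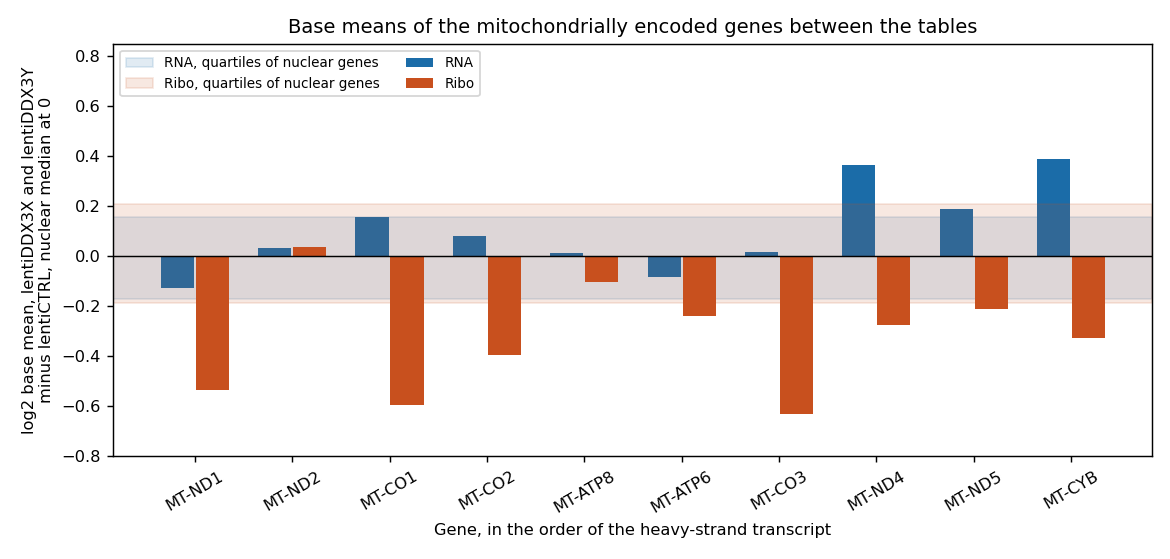
Log2 base mean in the lentiDDX3X and lentiDDX3Y table minus the lentiCTRL table for each mitochondrial gene, with the median of 7373 shared nuclear genes at 0; blue bars are RNA, orange bars ribo, and the bands span the nuclear quartiles. The ribo bar is below 0 for 9 of 10 genes, lowest for MT-CO3 (-0.63), and the RNA bar is highest for MT-CYB (0.39).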

How the data were processed

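Ribosome profiling and stranded total RNA-seq were done on lysates of cells treated with 100 µg/ml cycloheximide before harvest, and the lysis buffer held it too. It acts on cytosolic and not on mitochondrial ribosomes. The part that this treatment takes in the ratios of mitochondrial to nuclear genes was not tested. Footprints were cut from a gel by size, with an upper as well as a lower limit, before the libraries were made. The part that this size selection takes in the footprints of the mitochondrial genes was not tested. The counts come from Ribo-seQC, over coding sequence in hg38, for reads above 24 nt. Footprint reads had been cleared of adapters and UMI duplicates, and matches to rRNA and other small noncoding RNAs, tRNA included, do not enter them. Tools in the submitters' processing notes are Bowtie2, cutadapt and STAR 2.6.0a. Not given in the sources used here are the annotation release, the handling of reads with several places and the libraries that enter each base mean. The authors deposited 1 base mean per gene and assay, a mean of DESeq2-normalized counts. The depth of each library is not given in the tables used here, so no counting interval was computed. The tables also hold the authors' log2 fold changes, adjusted p-values and gene classes for both of their contrasts, the IAA effect and the difference between the paralogs, and these were not used. Gene lengths and positions came from the Ensembl canonical coding sequence in GENCODE v44, stop codon excluded, matched by gene ID (8633 of 8644 and 7409 of 7420 nuclear genes). The starts of 2 members are not reported here.

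Footprints per RNA are log2(ribo base mean / RNA base mean) minus the median over nuclear genes, without a pseudocount. Nuclear genes under the lowest listed ribo base mean are outside the tables. Genes named are all members, the other mitochondrial mRNAs, the ends of each list by footprints per RNA, the nuclear genes with the highest level in a table or complex, and the 5 nuclear genes nearest to the median member. Genes named for the highest level were added to that rule after their values were seen. The members and lists were chosen with earlier results of these data known. Alternatives were other nuclear backgrounds and centres, the base mean of the joint model, other lengths, and MT-ATP8 with MT-ATP6 left out or merged. Calculations used Python 3.11.15, pandas 2.3.3, numpy 2.4.6 and matplotlib 3.10.9. A check on simulated data with set shifts covered only the centring and the percentiles, and its recovery of the shifts followed from how the data were built. Division by length, the complex factors and the comparison between the tables were not part of it.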

Additional observations from a re-analysis of the deposited data

How the results depend on the processing

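Of 100 settings tried on the main values, 81 left the value within 1.5 times and 19 moved it by more. None of the log2 values changed direction. Part of the main values are counts of members, which have no direction and could not rise by 1.5 times. The median differences between the tables (0.06 for RNA and -0.30 for footprints) are themselves smaller than 1.5 times. They could vanish and still count as unmoved, so the 81 says little about them. In the lentiDDX3X and lentiDDX3Y table the lower of the base mean limits named below removed no nuclear gene. Its values there could only repeat the main ones, so they test nothing. They are counted among the 81, and among the 36 single-gene settings below that stayed. Against nuclear subunits of complexes I to V the median member was -2.29 in the lentiCTRL table and -2.52 in the other, and against nuclear genes with as much RNA, a background chosen after seeing the data, -0.24 and -0.90. With the base mean of the joint model over that of RNA it was -0.53 and -0.67, as that mean itself includes the RNA libraries. Without division by length the log2 excess of mitochondrial over nuclear subunits was 6.11 and 6.15 for RNA and 3.03 and 3.07 for footprints in complex I, 6.42 and 6.99 and 5.19 and 4.86 in complex III, and 6.88 and 6.93 and 3.49 and 3.03 in complex IV, since nuclear subunits are shorter. With the mean in place of the median, complex I footprints stood at 2.30 in the lentiCTRL table. Among 80 settings for single genes 36 stayed, 35 moved and 9 turned the sign, all for genes near the nuclear median or against genes of high RNA. In the lentiCTRL table MT-ND2 turned to -0.067 with nuclear base means above 20, to -0.46 above 100 and to -0.93 against the nuclear subunits, MT-ND5 to -0.12 above 100 and to -0.59 against the subunits, and MT-CYB to 0.44 against nuclear genes of high RNA. In the other table MT-ND2 turned to -0.28 above 100 and to -0.72 against the subunits, and MT-ND5 to 0.84 against genes of high RNA. No fit without a replicate could be made, since each table gives 1 base mean per gene and assay. No paired analysis was possible because the columns carry no replicate.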
